A study of Mus musculus with 8 samples.

Results

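Chemokines are small secreted proteins that guide the movement of leukocytes through receptors on the cell surface. Cxcl9, Cxcl10 and Cxcl11 are the ligands of Cxcr3, a receptor of activated T cells and natural killer cells, and are classical targets of interferon. Ccl5 attracts T cells and monocytes through several CC receptors and is induced by interferon and by LPS. Cxcl12 signals through Cxcr4, is made without an inflammatory stimulus and helps to retain leukocytes and progenitor cells in tissues. Ccrl2 is an atypical receptor that binds chemerin without signalling and presents it to cells that carry the chemerin receptor Cmklr1. The 6 genes were picked by symbol, with their values known, from the authors' deposited table of 259 genes, and all 6 are in it.

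The cells were mouse mammary epithelial cells (MECs) of strain FVB, named PyVmT in the design text and labelled Uba7 KO. The product of Uba7 is UBE1L, which primes ISG15, a small modifier related to ubiquitin, for transfer onto target proteins (ISGylation). The comparison sets 2 libraries of Uba7 KO cells given UBE1L against 2 libraries of Uba7 KO cells given an empty vector. All 4 had IFN, named in the titles with no type, dose or time, and LPS, a bacterial lipid sensed by Toll-like receptor 4, at 100 ng/mL for 6 hours. Another 4 libraries, 2 with UBE1L and 2 with the empty vector, had IFN alone, and no group has intact Uba7. The labels do not state whether the libraries within a group are separate cultures or lines. The p-values may therefore measure technical spread, and a difference between the lines carrying each vector cannot be told apart from one caused by UBE1L. In cultures measured in bulk, fewer cells that express a gene and less RNA per cell cannot be told apart. The values per library were not analysed here, since the table holds 1 fold change, 1 mean abundance and 1 test per gene. By the authors' deposited table Uba7 itself had a log2 fold of 5.72, which makes it 52.7-fold higher in UBE1L cells, in the direction the labels give.

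The promoters of Cxcl9, Cxcl10, Ccrl2 and Cxcl12 are printed because interferon and LPS act on this class of genes through known DNA elements. These were the members with a window in the promoter sequences used, while Ccl5 and Cxcl11 had none. The printed genes span both directions of change. Each window is a RefSeq sequence (GRCm38.p6) from 250 bases before to 50 bases after the transcription start, written 5′ to 3′ on the strand of the gene. Capitals mark motif matches as described after the sequences, and for Ccrl2 the first of its 3 annotated starts is shown. The build behind the expression table is not given in the sources used here.
Cxcl9, chr5:92328030-92328329, minus strand: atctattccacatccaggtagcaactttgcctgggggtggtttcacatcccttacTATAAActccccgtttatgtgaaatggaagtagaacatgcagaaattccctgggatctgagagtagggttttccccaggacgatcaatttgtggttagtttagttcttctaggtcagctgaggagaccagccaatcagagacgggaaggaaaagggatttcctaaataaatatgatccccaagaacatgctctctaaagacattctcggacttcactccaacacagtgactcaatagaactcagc
Cxcl10, chr5:92348840-92349139, minus strand: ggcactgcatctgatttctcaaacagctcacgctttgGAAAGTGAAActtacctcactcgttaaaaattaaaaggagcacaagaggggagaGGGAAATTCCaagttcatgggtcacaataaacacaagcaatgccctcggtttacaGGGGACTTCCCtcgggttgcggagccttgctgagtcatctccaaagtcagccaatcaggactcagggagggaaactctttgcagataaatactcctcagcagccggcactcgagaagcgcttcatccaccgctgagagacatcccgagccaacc
Ccrl2, chr9:111057469-111057768, minus strand: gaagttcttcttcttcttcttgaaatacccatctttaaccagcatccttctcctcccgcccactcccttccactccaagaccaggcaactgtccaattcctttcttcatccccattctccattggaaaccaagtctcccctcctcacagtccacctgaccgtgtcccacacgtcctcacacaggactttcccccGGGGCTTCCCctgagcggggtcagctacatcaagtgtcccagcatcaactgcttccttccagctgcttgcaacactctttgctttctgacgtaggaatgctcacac
Cxcl12, chr6:117168285-117168584, plus strand: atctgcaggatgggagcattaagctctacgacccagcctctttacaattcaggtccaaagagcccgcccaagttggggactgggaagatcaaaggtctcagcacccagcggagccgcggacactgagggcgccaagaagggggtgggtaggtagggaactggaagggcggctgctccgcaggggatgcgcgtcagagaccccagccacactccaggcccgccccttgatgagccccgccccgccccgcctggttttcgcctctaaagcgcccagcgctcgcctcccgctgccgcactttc

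Motifs were searched as exact letters on both strands. The core of the interferon-stimulated response element, bound by the ISGF3 complex and by IRF proteins, was spelled GAAA, any pair of bases, GAAA, and 3.44% of all 32851 windows hold it. Among the 6 windows of these 4 genes it was found once, in Cxcl10, as GAAAGTGAAA from 213 to 204 bases before the start. The NF-kB consensus, searched by its standard degenerate letters, was not planned and was added after the data had been seen. This consensus is in 8.46% of all windows. Cxcl10 holds it as GGGAAATTCC from 159 to 150 bases before the start, and again as the overlapping matches GGGGACTTCC and GGGACTTCCC between 104 and 94 bases before the start. Ccrl2 holds it once, as GGGGCTTCCC from 56 to 47 bases before its first start. Both the response element core and the NF-kB consensus occur in 0.247% of all windows, and among these 4 genes Cxcl10 is the one with both. Since the consensus was added after the data had been seen, nothing is read from that share.

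A strict NF-kB spelling, GGGA, any base, TTTCC, is in 0.411% of all windows and the gamma-activated site TTCNNNGAA is in 8.30%. Neither spelling was found in the windows of these 4 genes. A search by fixed letters misses elements of another spelling or length, so a lack of matches does not show that such elements are absent. The letters TATAAA, the spelling used for the TATA box, are in 13.6% of all windows. They were found in Cxcl9 from 195 to 190 bases before the start. Whether they act as a TATA box at that distance was not tested. The Cxcl12 window held no match to any of these motifs. It was also the richest in G and C of the 6, at 64.7% with 20 CpG pairs, against 44.3% with 4 CpG pairs in Cxcl9 and 50.3% with 10 in Cxcl10. The medians over all windows are 52.7% and 7 CpG pairs. These matches describe letters in a short window and are not binding sites measured in these cells.

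**Figure D1:**
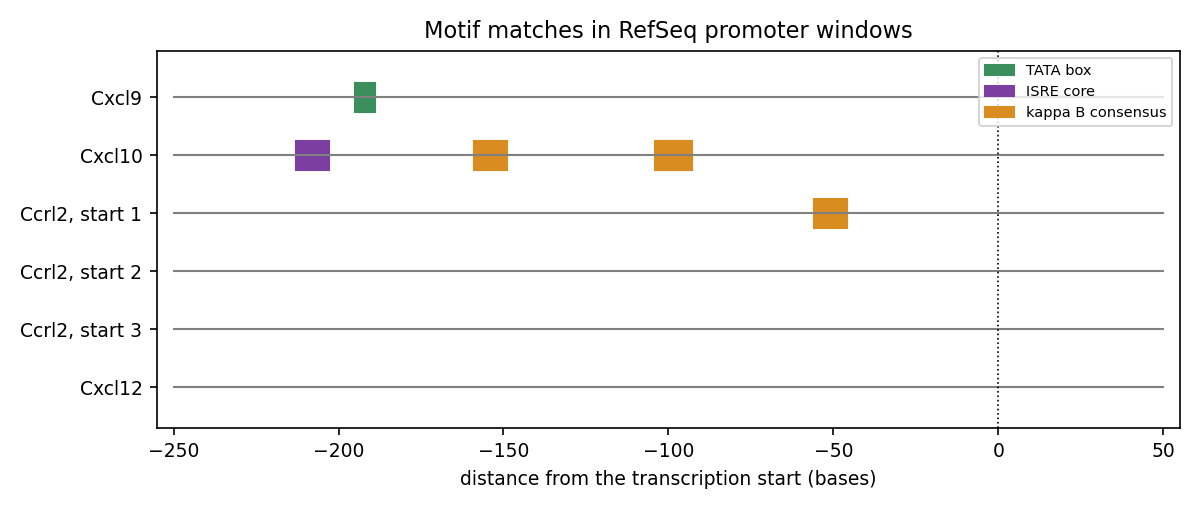
Positions of motif matches in the 6 RefSeq promoter windows of Cxcl9, Cxcl10, Ccrl2 and Cxcl12. The horizontal axis is the distance from the annotated transcription start in bases and each line is 1 window; the Cxcl10 window carries 1 response element core and NF-kB matches at 2 places, and the Cxcl12 window carries no match.

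Of the 6 genes, 5 were higher and 1 was lower in UBE1L cells in the authors' deposited table. Relative to the median listed fold of 0.66 log2 units, Cxcl9 and Cxcl10 fall on the lower side. That median comes from genes selected for change and measures no scaling error, so it does not bear on the direction of these 2 genes. All listed genes together were higher in 83.8% and lower in 16.2% of cases, and since the members were chosen from this comparison nothing is read from their count. Where the log2 fold had to reach 1 in either direction, 3 members were higher and 1 was lower, beside 19.7% and 3.09% of all listed genes. At an adjusted p under 0.01, 4 members were higher and 0 were lower, beside 59.1% and 9.27% of all listed genes. The median log2 fold over the 6 was 0.83 in the authors' deposited table. Every entry had passed the authors' limits, and the absolute log2 folds start at 0.50 while the adjusted p-values end at 0.0498. An approximate standard error was derived for each gene as the absolute log2 fold divided by the square root of the authors' likelihood ratio, and it reflects the spread in the authors' own model.

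Cxcl10 and Ccl5 had the smallest approximate errors of the 6 genes. Cxcl10, the Cxcr3 ligand also known as IP-10, was 1.44-fold higher in UBE1L cells in the authors' deposited table (log2 fold change 0.53, adjusted p 2.07e-12). Its approximate standard error was 0.07 log2 units, with a 95% interval of 0.39 to 0.66 log2 units. The log2 fold thus stood close to the smallest one listed, and 15 of the 217 higher genes had a smaller one in the authors' deposited table. Cxcl10 averaged 8.29 log2 CPM there and ranked 7 of 259 by mean abundance. A mean of 313 CPM corresponds to about 7819 reads per library at the depth of about 25000000 reads that the labels state.

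Cxcl9, the ligand first described as induced by interferon gamma, was 1.50-fold higher in UBE1L cells in the authors' deposited table (log2 fold change 0.59, adjusted p 0.0320). Its approximate standard error was 0.23 log2 units and the 95% interval ran from 0.14 to 1.03 log2 units. This p was among the weaker ones listed, at rank 230 of 259 in the authors' deposited table. Mean abundance was 2.46 log2 CPM there, or about 137 reads per library at the stated depth. Cxcl9 and Cxcl10 differed by 0.06 log2 units in fold, and their approximate intervals overlapped.

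Cxcl11, the ligand also known as I-TAC, was 2.09-fold higher in UBE1L cells in the authors' deposited table (log2 fold change 1.07, adjusted p 1.69e-06). Its approximate standard error was 0.20 log2 units, with a 95% interval of 0.68 to 1.45 log2 units, which lies above that of Cxcl10 and overlaps that of Cxcl9. Mean abundance was 2.80 log2 CPM in the authors' deposited table, or about 174 reads per library. RefSeq, which annotates the C57BL/6J genome, classes Cxcl11 as a transcribed pseudogene with 1 noncoding transcript and 0 proteins. GENCODE M21 calls it a polymorphic pseudogene and marks 1 of its 2 transcripts as protein coding. The cells were of strain FVB, and whether their Cxcl11 transcript codes for a protein was not tested.

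Ccl5, also known as RANTES, was 2.17-fold higher in UBE1L cells in the authors' deposited table (log2 fold change 1.12, adjusted p 3.92e-17). The approximate standard error was 0.12 log2 units and the 95% interval was 0.88 to 1.36 log2 units. By p it ranked 21 of 259, the lowest of the 6 genes in the authors' deposited table. Among the 26 listed genes within 0.5 log2 CPM of its mean abundance of 4.52 log2 CPM, Ccl5 had the largest absolute fold, against a median absolute log2 fold of 0.63 in the authors' deposited table. About 575 reads per library correspond to that abundance at the stated depth.

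Ccrl2 had the highest fold of the 6 and was 2.83-fold higher in UBE1L cells in the authors' deposited table (log2 fold change 1.50, adjusted p 0.00166). It ranked 10 of 259 by fold there. Its mean abundance was 1.15 log2 CPM, or about 55 reads per library, and its approximate standard error was 0.40 log2 units with a 95% interval of 0.71 to 2.29. The approximate intervals of Ccrl2, Ccl5, Cxcl11 and Cxcl9 overlapped one another, and the differences between these folds were not tested. The interval of Cxcl10 lay below those of Ccrl2, Ccl5 and Cxcl11, and these differences were not tested either. The 30 listed genes within 0.5 log2 CPM of Ccrl2 had a median absolute log2 fold of 1.13 and none was listed below 0.77 in the authors' deposited table.

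Cxcl12, also known as SDF-1, was the 1 member that fell, and was 2.49-fold lower in UBE1L cells in the authors' deposited table (log2 fold change -1.31, adjusted p 0.0408). Its approximate standard error was 0.53 log2 units, and the 95% interval ran from -2.36 to -0.27 log2 units. Cxcl12 had 3 genes below it by log2 fold in the authors' deposited table, and 15 genes had a higher adjusted p. Mean abundance was -0.22 log2 CPM there, rank 257 of 259, which corresponds to about 22 reads per library at the stated depth. Among the 10 listed genes within 0.5 log2 CPM of it, absolute log2 folds ran from 1.15 to 1.92, in the authors' deposited table, and 6 of these genes were higher and 4 lower. No gene in this range of abundance with an absolute log2 fold under 1.15 was listed.

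**Figure D2:**
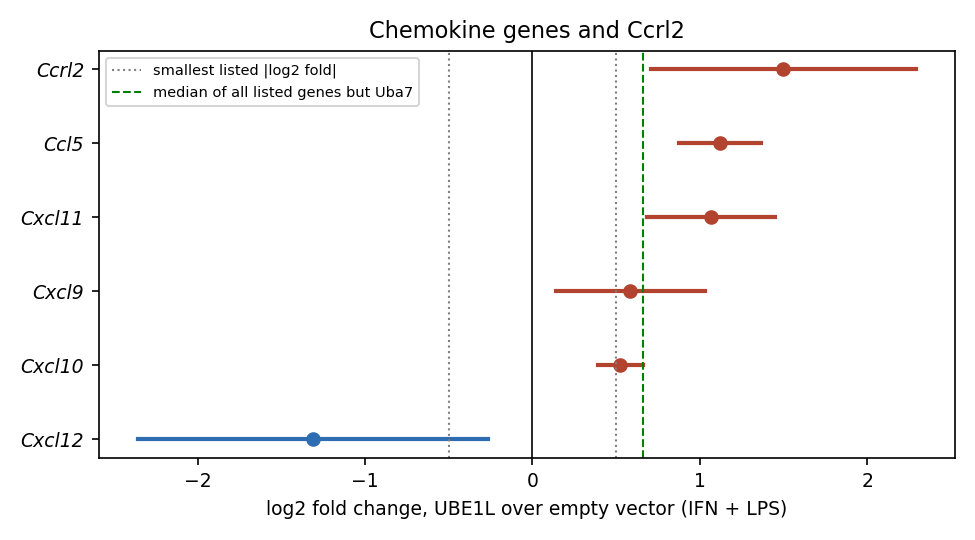
Log2 fold change of the 6 genes, UBE1L over empty vector, both with IFN and LPS (horizontal axis, log2 units). Points are the authors' values, bars the approximate 95% intervals, dotted lines the smallest listed absolute fold (0.50) and the dashed line the median of all listed genes but Uba7 (0.66); Ccrl2, Ccl5 and Cxcl11 lie above that median, Cxcl9 and Cxcl10 lie below it and Cxcl12 lies below 0.

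**Figure D3:**
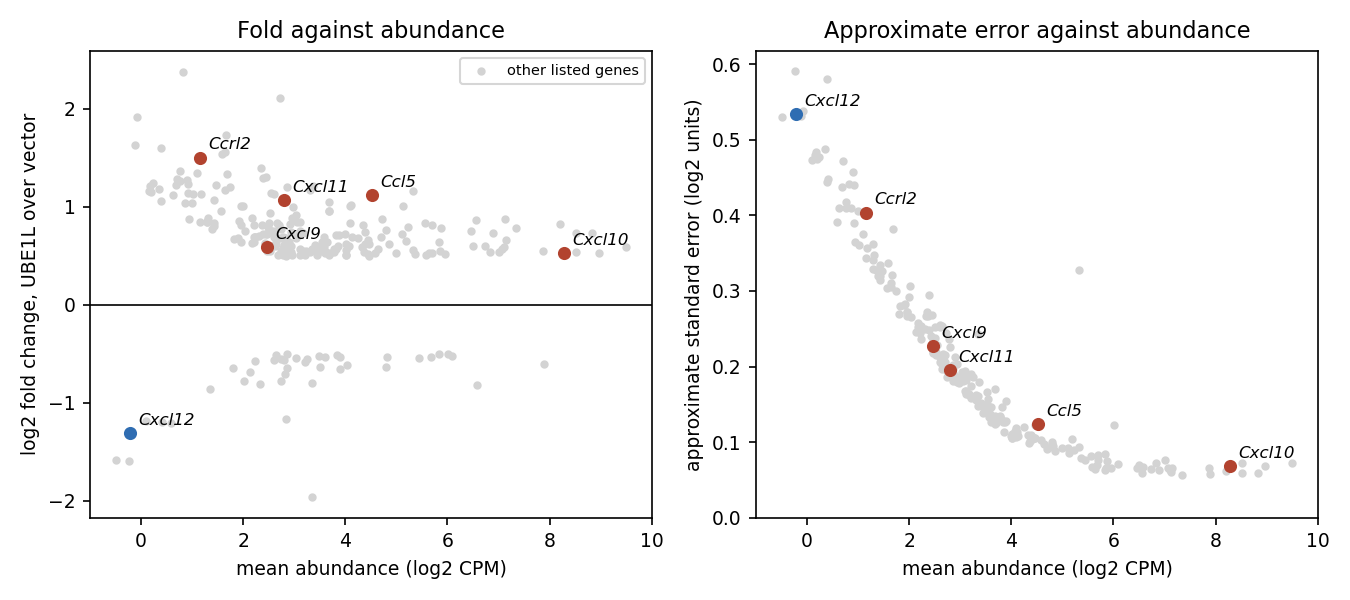
Log2 fold change (left) and approximate standard error in log2 units (right) of the listed genes other than Uba7, against mean abundance in log2 CPM. The 6 named genes span -0.22 log2 CPM (Cxcl12, standard error 0.53) to 8.29 log2 CPM (Cxcl10, standard error 0.07).

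CPM does not correct for transcript length, so levels were also set per kilobase with the shortest and the longest GENCODE M21 transcript of each gene. Cxcl10 averaged 140.3 to 909 CPM per kilobase, above the 34.5 to 43.3 of Ccl5. The ranges were 1.90 to 14.9 CPM per kilobase for Cxcl9, 1.83 to 4.40 for Cxcl11 and 0.902 to 3.90 for Ccrl2, and these 3 overlapped. Cxcl12 had the lowest range, 0.153 to 0.458 CPM per kilobase. The libraries over which the authors averaged are not named in the file header.

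Salmon divides reads among transcripts by sequence, so stretches of 50 bases, the read length, that also occur in another gene were counted. No such stretch was found for Ccl5, Cxcl10, Cxcl12 or Ccrl2. Cxcl9 shared 14 of 2964 stretches (0.472%) and Cxcl11 shared 9 of 3792 (0.237%). Cxcl12 has 3 RefSeq coding transcripts, and the table gives a single value per gene, so its isoforms were not analysed here.

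Outside the 6 genes, no other gene of the family is listed. Of 40 chemokine ligand genes, 4 were higher, 1 was lower and 35 are not listed in the authors' deposited table. By class these were 1 of 23 CC ligands, 4 of 15 CXC ligands and 0 of 2 CX3C and XC ligands. All 5 listed ligands are members chosen because they are listed, so these counts restate that choice. Beside them, 250 of 21900 RefSeq coding genes (1.14%) are listed, a share that includes genes not expressed in these cells. At that share few or no entries would be found in a list of this size, and the lack of others says nothing about the unlisted ligands, such as the neutrophil-attracting Cxcl1 and Cxcl2 or the monocyte attractant Ccl2. An unlisted gene may have been left untested, may have changed too little or may have missed the p threshold.

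The receptor lists are given as counts, beside the same 1.14% of all coding genes. None of 18 signalling chemokine receptor genes, Cxcr3, Cxcr4, Ccr1 and Ccr3 among them, is listed in the authors' deposited table. Of 5 atypical receptor genes, Ccrl2 is listed and the other 4 are not, Ackr3 among them, which binds Cxcl11 and Cxcl12. The chemerin gene Rarres2 and the chemerin receptor genes Cmklr1 and Gpr1 are not listed. Neither is any gene of a chosen list of 8 for enzymes and proteoglycans that cut or bind chemokines. That list left out Mmp13 (log2 fold 0.82) and Mmp3 (0.53), metalloproteinase genes that were higher in UBE1L cells in the authors' deposited table. Both were named after their values were seen, and whether they act on chemokines here was not tested.

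Of 29 genes that relay interferon and LPS signals, among them receptors, kinases, STAT, IRF and NF-kB proteins and their inhibitors, 1 is listed, too few to read against 1.14% of all coding genes. It was Lbp, the serum protein that hands LPS to its receptor, at a log2 fold of 0.59 in the authors' deposited table (adjusted p 2.29e-15).

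In the order of RefSeq coding genes, with Cxcl11 kept in, Cxcl9, Cxcl10 and Cxcl11 lie at 1 locus with Art3 between Cxcl9 and Cxcl10. Apart from the 3 ligands, none of the genes within 6 places of Cxcl10 is listed, Art3 included. Ccl5 stands beside Ccl9, Ccl6, Ccl3 and Ccl4, none of them listed. Within 6 places of Ccl5 the whey acidic protein family gene Wfdc18 is listed, with a log2 fold of 0.60 (adjusted p 7.20e-18) in the authors' deposited table. The direct neighbour of Ccrl2 is Ltf, the iron-binding milk and neutrophil protein lactotransferrin, with a log2 fold of 0.76 (adjusted p 9.00e-28) in the authors' deposited table. Wfdc18 and Ltf were named after their values were seen, and none of the 12 neighbours of Cxcl12 is listed. With 1.14% of all coding genes listed, nothing is read from these few neighbours, listed or not.

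**Figure D4:**
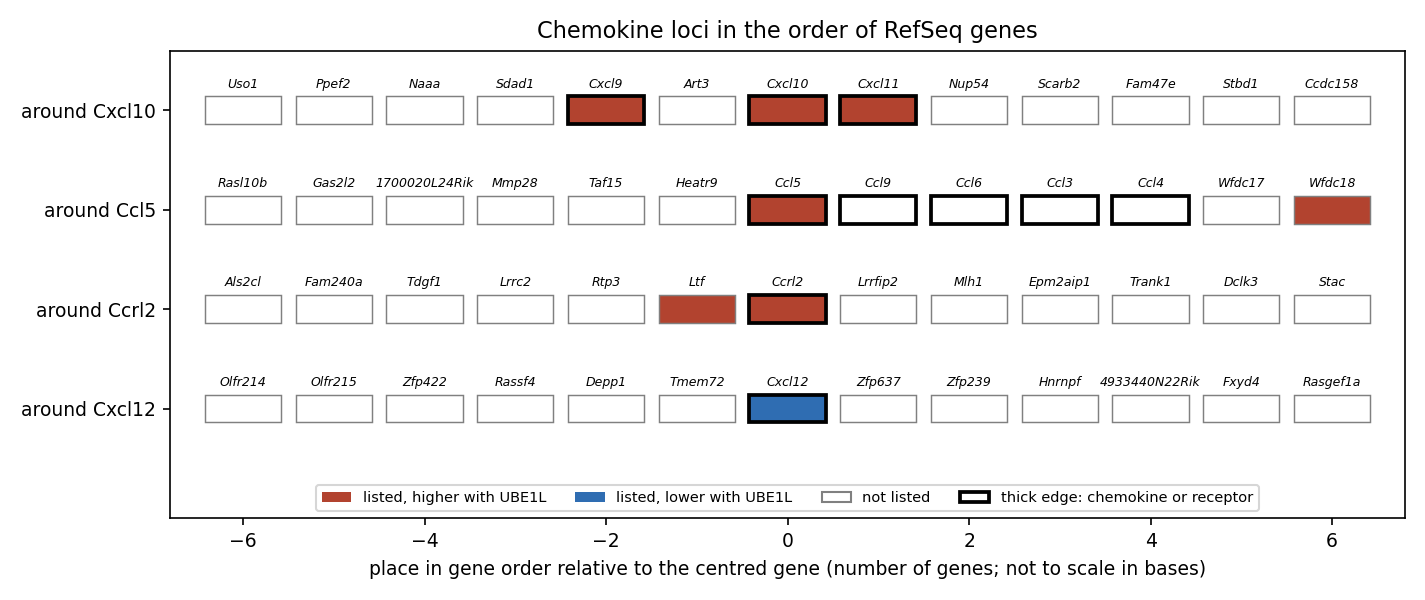
Genes within 6 places of Cxcl10, Ccl5, Ccrl2 and Cxcl12 in the order of RefSeq coding genes and Cxcl11 (horizontal axis, places from the centred gene, not to scale in bases). Filled boxes are listed by the authors as higher (red) or lower (blue), open boxes are not listed and thick edges mark chemokine and receptor genes. Relative to the median listed fold Cxcl9 and Cxcl10 would fall on the lower side, but that median comes from genes selected for change and measures no scaling error.

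Genes most like a member were taken as the nearest pair by distance in log2 fold and mean log2 CPM, over this 1 comparison. They were Mxra8 and Slc25a18 for Ccrl2, Nlrc5 and Cldn4 for Ccl5, Slfn4 and Olfr56 for Cxcl11, Igfbp5 and Col3a1 for Cxcl10, and Zfp708 and Ngfr for Cxcl12 in the authors' deposited table. These distances ran from 0.15 log2 units for Slfn4 and Cxcl11 to 0.35 log2 units for Cldn4 and Ccl5.

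Markers of other cells could be read only where they are listed, as are 1.14% of all RefSeq coding genes. The marker lists were chosen with earlier results known, so nothing is read from their counts. Of 16 leukocyte markers, Ptprc and Cd3e among them, 0 are listed in the authors' deposited table, as are 0 of 6 endothelial and adipocyte markers. Of 9 fibroblast markers 3 were higher and the other 6, Pdgfra and Pdgfrb among them, are not listed. The log2 folds were 0.82 for the collagen gene Col3a1, 0.52 for the collagen gene Col1a1 and 0.51 for the proteoglycan gene Dcn in the authors' deposited table. Of 10 epithelial markers, the tight junction gene Cldn4 is listed, at a log2 fold of 0.82 in the authors' deposited table, and the others are not. Marker levels in each group were not analysed here, so the labelled cell type could not be checked, and the part of these markers in the chemokine values was not tested.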

How the data were processed

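The members and the gene lists were chosen with earlier results of these data known. Libraries were stranded, made from poly-A RNA and read from 1 end for 50 bases, per the labels' protocols. The submitters' processing notes list Trimmomatic 0.36, Salmon 0.9.1 and edgeR among the tools used by the authors, without saying for which step. For the build, annotation, filters and model, details were not given in the sources used here. The table, per the file headers, holds a log2 fold change, a mean log2 CPM, a likelihood-ratio score, a p-value and an adjusted p-value (named both Bonferroni and FDR), all as deposited by the authors; base 2 was taken from the authors' column names, which are those that edgeR writes. Depth per library is unknown from it. No test was run. Approximate standard errors, motif searches and counts of shared stretches were computed with Python 3.11.15, pandas 2.3.3, numpy 2.4.6 and scipy 1.17.1. Each was tested on made-up data. The errors were tested on Poisson counts without further spread between replicates, so that test does not cover the spread in the authors' model. The motif search was tested on a single constructed sequence. Promoters came from RefSeq (GRCm38.p6), with 4 of 6 members matched, and transcripts from GENCODE M21. All list symbols were in the RefSeq gene table. Genes whose values are named are the members, Uba7, listed genes of the lists and the nearest pair of genes to each member; the pair of Cxcl9 is not reported here. Wfdc18, Ltf, Mmp13 and Mmp3, chosen with their values in view, are exceptions. Unlisted genes are named as examples of lists or neighbours, without values. Protein features were planned and not analysed here.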

Additional observations from a re-analysis of the deposited data

How the results depend on the processing

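Settings select among deposited values, so lower counts follow from their construction, except the subtraction of a median. With an adjusted p under 0.01, 4 members stayed higher and 0 lower, and 3 of the 5 listed ligands were left. With an absolute log2 fold of at least 1, 3 members were higher, 1 was lower and 3 ligands were left, and with at least 2 there were 0 higher and 0 lower. With mean log2 CPM of at least 1, 5 were higher and 0 lower. Subtracting the median log2 fold of all listed genes but Uba7 (0.66) left 1 member, Ccrl2 at 0.84, higher past the smallest listed fold, and 1 lower, Cxcl12 at -1.97. Ccl5 became 0.46 and Cxcl11 0.41, under that limit, while Cxcl9 at -0.072 and Cxcl10 at -0.13 turned negative. That median comes from genes selected for change and measures no scaling error. For the fold limit of 2, the abundance limit and the subtraction, shares over all listed genes were not computed. Nothing is read from the member counts at those settings. Matching by synonyms gave the same 5 ligands.

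No paired analysis was possible because each gene has a single fold and no library has values of its own here. The fits planned without each replicate, with other scaling and without a count filter were therefore not run.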
